A study of Mus musculus with 4 samples.

Results

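The Hedgehog pathway genes Shh, Ptch1, Smo, Gli1, Gli2, Gli3, Hhip, Sufu and Boc were examined for Foxr2 chromatin peaks. These 9 genes, out of 21938 protein-coding genes on chromosomes 1 to 19, X and Y, were taken by name as core parts of the pathway, by a rule that uses no measured value, though with earlier results of these data known. Every peak overlapping the gene body or the 10 kb on either side was assigned to the gene (GENCODE M21 gene models, mouse build GRCm38/mm10). A peak within 1 kb of a protein-coding start of the gene was called a promoter peak, a peak within 1 kb of the start of another protein-coding gene was kept apart, and the others were called distal. All counts are given before and after a minimum fold enrichment of 6.

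The study used CUT&RUN, in which an antibody directs a nuclease to release the DNA around a bound protein, with an antibody against the V5 tag. Foxr2 p53LOF was a neurosphere line from a brain tumor of C57BL/6J mice made by in utero electroporation (IUE), in which FOXR2 with a V5 tag at its C terminus was driven by the CAG promoter from a piggyBac vector and Trp53 was targeted with CRISPR/Cas9. V5 control was cell line material from a separate IUE model of the same strain, with the genotype label H3.3G34R and no V5 tag, so the groups differed in tumor genotype as well as in the tag. Each group had 2 replicates of 500000 cells, cross-linked with 0.1% formaldehyde for 1 minute. Replicates were libraries of established lines and nothing in the labels ties them to separate tumors, so differences between them measure only the spread of these libraries, which may be technical. The tagged protein was overexpressed, and the peaks say nothing of Foxr2 at its natural level. Cell identity could not be checked from peak positions.

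Hedgehog ligands such as Shh bind the receptor Ptch1 with the help of co-receptors such as Boc, and this relieves the block that Ptch1 places on the transmembrane protein Smo. Active Smo releases the GLI transcription factors from Sufu in the primary cilium, and Gli1, Ptch1 and Hhip are themselves classic transcriptional targets that feed back on the pathway. In the ventral forebrain, where the medial ganglionic eminence forms, Shh is a patterning signal, and Gli3 is best known there as a repressor.

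Sequences under the summits of some of the peaks on which the results turn are shown here to make each site concrete. Each is 200 bases of the reference genome around a summit, on the plus strand of GRCm38, in lower case, with capitals marking matches to any of 5 short motifs searched on both strands: the ETS core CCGGAA, the GLI core ACCACCC, the forkhead motif GTAAACA, the SOX motifs ACAAAG and ACAATG, and the CCAAT box CCAAT. A run of capitals may join matches that overlap.
Gli1 inner start, Foxr2 p53LOF replicate 1, chr10:127339100-127339299: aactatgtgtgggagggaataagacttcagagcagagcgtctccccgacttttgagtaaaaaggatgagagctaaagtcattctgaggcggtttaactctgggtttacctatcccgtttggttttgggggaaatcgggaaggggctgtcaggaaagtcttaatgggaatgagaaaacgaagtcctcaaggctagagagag
Gli2 promoter, Foxr2 p53LOF replicate 2, chr1:119053766-119053965: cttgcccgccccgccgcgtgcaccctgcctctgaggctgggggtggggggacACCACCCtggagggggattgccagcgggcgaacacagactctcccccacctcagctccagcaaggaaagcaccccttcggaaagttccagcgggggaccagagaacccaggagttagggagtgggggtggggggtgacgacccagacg
Smo promoter, Foxr2 p53LOF replicate 1, chr6:29736377-29736576: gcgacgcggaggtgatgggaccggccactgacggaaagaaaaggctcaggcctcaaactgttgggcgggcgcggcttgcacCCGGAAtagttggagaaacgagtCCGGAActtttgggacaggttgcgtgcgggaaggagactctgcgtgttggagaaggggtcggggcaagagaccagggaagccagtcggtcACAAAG
Smo intron, V5 control replicate 1, chr6:29748318-29748517: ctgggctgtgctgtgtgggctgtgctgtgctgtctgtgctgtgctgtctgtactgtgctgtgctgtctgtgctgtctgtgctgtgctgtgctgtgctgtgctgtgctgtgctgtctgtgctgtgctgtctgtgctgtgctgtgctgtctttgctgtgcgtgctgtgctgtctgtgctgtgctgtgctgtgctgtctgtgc
Ahcyl2 promoter downstream of Smo, Foxr2 p53LOF replicate 1, chr6:29767950-29768149: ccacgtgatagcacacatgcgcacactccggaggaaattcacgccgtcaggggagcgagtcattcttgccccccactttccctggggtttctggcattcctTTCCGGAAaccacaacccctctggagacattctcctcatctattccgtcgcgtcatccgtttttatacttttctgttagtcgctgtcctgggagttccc
Sufu and Actr1a, Foxr2 p53LOF replicate 1, chr19:46395362-46395561: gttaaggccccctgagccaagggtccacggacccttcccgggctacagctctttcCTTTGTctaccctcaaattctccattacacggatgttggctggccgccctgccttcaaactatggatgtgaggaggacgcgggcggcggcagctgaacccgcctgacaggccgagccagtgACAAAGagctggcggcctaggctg
Boc promoter, Foxr2 p53LOF replicate 1, chr16:44558565-44558764: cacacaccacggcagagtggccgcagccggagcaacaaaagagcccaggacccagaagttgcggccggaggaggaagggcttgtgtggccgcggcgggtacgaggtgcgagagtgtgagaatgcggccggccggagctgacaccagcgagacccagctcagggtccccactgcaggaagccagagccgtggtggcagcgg
The Smo intron is included because it was a peak in the control line too, and its window was a run of GCTGTG-like repeats with no match to any of these motifs. The Ahcyl2 window held the palindrome TTCCGGAA, which matches the ETS core on both strands.

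The 2 Foxr2 p53LOF libraries listed 31909 and 38580 peaks and the V5 control libraries 308 and 124. The files give no read totals. The number of fragments behind each summit was recovered from the steps between fold values, and to exceed a fold of 6 a summit needed 13 or 18 fragments in the tagged libraries (replicates 1 and 2) and 16 or 9 in the untagged ones. Where a fold is followed by an interval, it is the exact 95% Poisson interval of that fragment count, which covers counting error only.

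Of the 9 pathway genes, 8 had a peak in each Foxr2 p53LOF replicate and Shh had none in either. Over all protein-coding genes, 66.2% had a peak in replicate 1 and 66.9% in replicate 2. In each V5 control library 1 of the 9 genes, Smo in both, had a peak, where 0.524% and 0.26% of all genes did and 0.228% did in both. The counts of 8 and 8 against 1 and 1 did not overlap, and the same counts were found above the minimum fold. The exact permutation test (two-sided) gave p = 0.333, the smallest that 2 libraries against 2 allow. The control lists are so short that a gene without a control peak is the ordinary case.

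A peak overlapping between the 2 Foxr2 p53LOF replicates was present at 8 of the 9 genes, where 62.6% of all genes had one. After the minimum fold the count was again 8 of 9 and the share of all genes 50.4%. A shared promoter peak was present at 8 of 9 genes against 50.9% of all genes, and above the minimum fold at 7 of 9 against 39.6%, Gli3 being the gene that fell below it. Long genes and GC-rich promoters carried peaks more often in these libraries. All genes were therefore cut into 5 bins of equal size by promoter GC content. Read in the bins of the 9 genes, the share of all genes averaged 79.6%, 65.3%, 68.8% and 54.3% for those 4 counts in turn, which corresponds to 7.17, 5.88, 6.20 and 4.89 of the 9 genes. In 5 bins of region length, the averages were 73.9%, 57.3%, 61.2% and 45.7%. The counts for the pathway thus stood above these averages by about 1 to 3 genes, and no test was made of this gap.

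**Figure D1:**
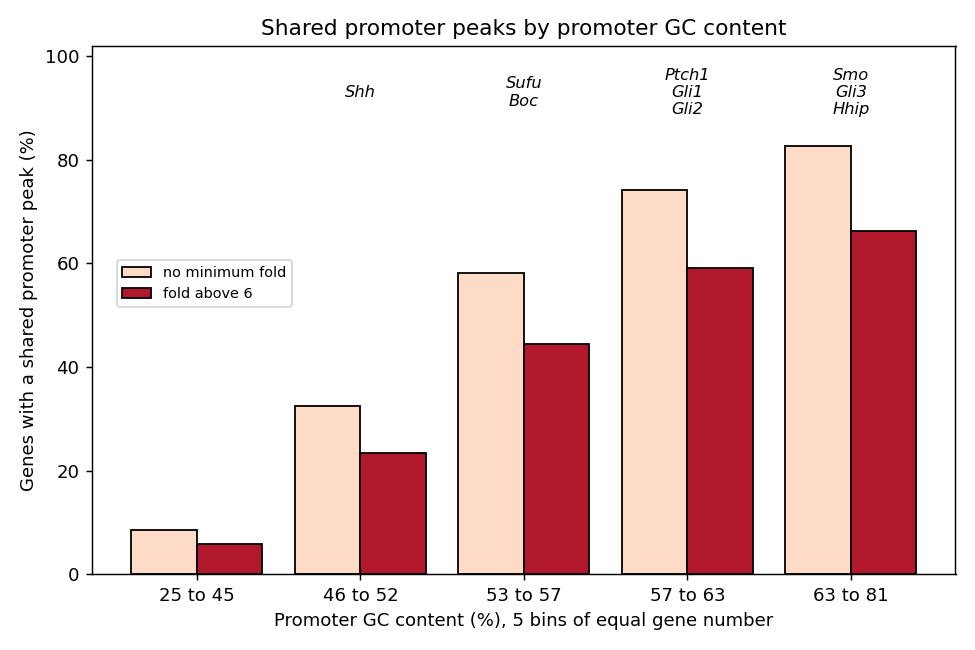
Percentage of protein-coding genes with a promoter peak shared by both Foxr2 p53LOF replicates (vertical axis) by promoter GC content (horizontal axis, %, in 1001 bp around the start, 5 bins), for no minimum fold (pale bars) and a fold above 6 (dark bars); the pathway genes are written over the bin they belong to. Shh is in a bin where 32.5% of genes had such a peak without a minimum, while Smo, Gli3 and Hhip are in the bin with 82.8%.

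Shh, the ligand of the set (chromosome 5, 28456815 to 28467256, minus strand), was without a peak in all 4 libraries. No Foxr2 peak lay within 100 kb of its start, and the nearest in each replicate was 148 kb downstream at the start of Rbm33, named here after its value was seen, with folds of 13.7 and 16.8. Of all protein-coding genes, 15.0% and 15.2% were as far or farther from a peak in the respective replicate. Within 500 kb of the start there were 9 and 10 Foxr2 peaks and 0 peaks of either control. The Shh promoter had a GC content of 50.4%, the lowest of the 9 genes. Its ratio of observed to expected CG dinucleotides was 0.552, above the 0.540 of Gli1. With all genes cut into 5 bins by that ratio, 56.85% of those in the bin of Shh had a shared promoter peak without a minimum. The weakest peak listed anywhere had a fold of 3.09 in replicate 1 and 2.96 in replicate 2, so enrichment at Shh below about that level was not detectable at this depth.

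Ptch1, the receptor that holds Smo inactive (chromosome 13, 63508328 to 63573598, minus strand), had the highest promoter folds of the set. Replicate 1 had a peak of 7298 bp with a fold of 23.4 (interval 17.6 to 30.6), its summit in an intron 810 bp upstream of the nearest of the 5 annotated starts, and a separate peak with a fold of 8.84 over the first start. In replicate 2 a single peak of 12659 bp spanned both, with a fold of 31.2 (25.3 to 38.1). Its summit lay in an intron 2196 bp upstream of the nearest start, so it was a promoter peak by its width alone. With peaks placed by their summits, Ptch1 had no shared promoter peak above the minimum. A high peak reaching annotated starts was present in both Foxr2 p53LOF replicates and no peak was listed in either control. The intervals of the replicates overlapped. The lower of the 2 folds stood at percentile 95.7 of the 11174 genes with a shared promoter peak, and the peak lengths at percentiles 99.8 and 99.9 of their libraries. A further distal peak lay in an intron, 5998 bp long with a fold of 9.28 (5.84 to 14.1) in replicate 1 and 7043 bp long with a fold of 13.5 (9.72 to 18.2) in replicate 2. Its summits were 9132 and 12061 bp from the nearest start. The other 3 peaks of replicate 1 and 3 of replicate 2 were distal, with folds from 3.54 to 5.26. Peaks covered 21.3% and 27.02% of the Ptch1 region, at percentiles 99.7 and 99.6 of all genes by covered length. Thus Ptch1 carried a block of signal from the first start into the gene, seen at its full width in the plot of peak positions.

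Chromosome 13, which holds Ptch1 and Gli3, had 20.02 and 25.9 peaks per Mb against medians over chromosomes of 11.1 and 12.9, and the level (median fold) of its promoter peaks was 1.33 times that of all promoter peaks in both replicates. The level of all its peaks was 0.917 and 0.867 times that of all peaks. Divided by the level of all peaks, the highest folds of Ptch1 rose to 25.6 and 36.01, and divided by the level of promoter peaks, a choice made after seeing the data, they came to 17.6 and 23.4, so the direction depended on the level used. The part of this chromosome-wide level in the folds was not tested. The 12659 bp peak of replicate 2 exceeded the maximum length of 10000 bp in the filters of the study's methods. Under the filters on control overlap, q-value, fold and length, the count of genes with a shared promoter peak above the minimum fell from 7 to 6 through the loss of Ptch1. The share of all genes went from 39.6% to 39.2%. The study also required overlap with open-chromatin (ATAC) peaks of the same mouse model, and that step was not applied here.

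**Figure D2:**
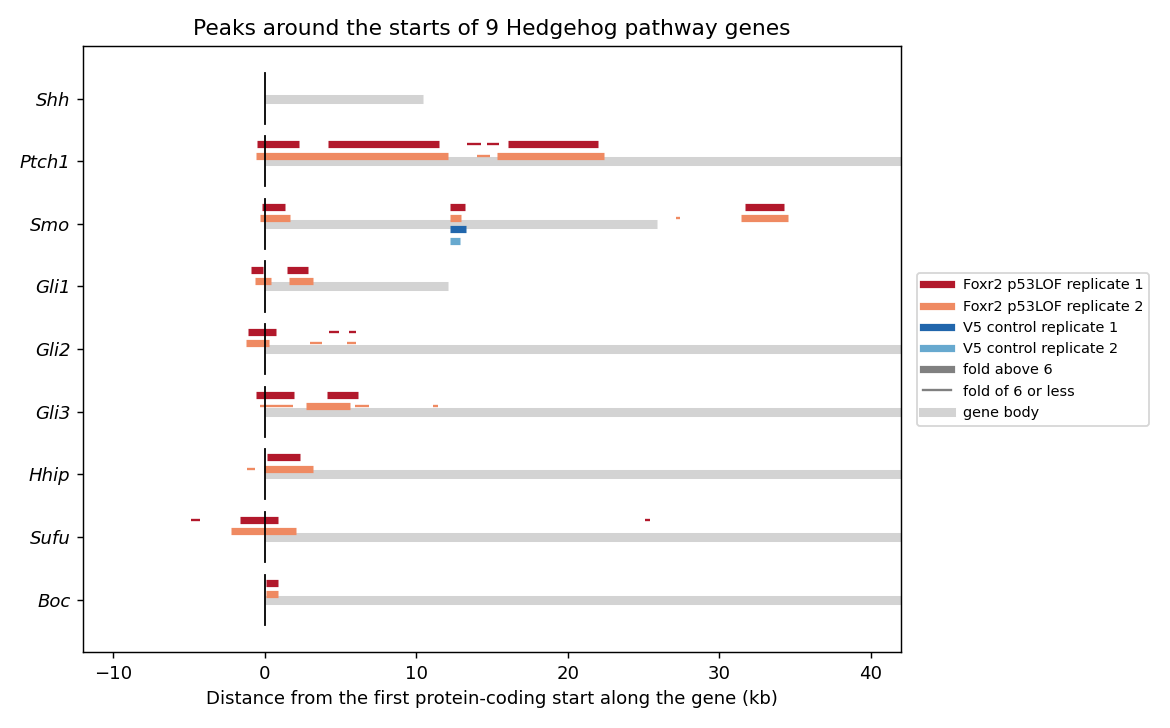
Peaks of each library (colored bars, one track per library) by distance in kb from the first protein-coding start of each of the 9 genes, drawn along the direction of transcription; thick bars had a fold above 6, thin bars 6 or less, and the grey band is the gene body. Peaks more than 42 kb from the start are not drawn. Ptch1 is covered over most of its first 20 kb, Shh is empty, and the control peaks are in Smo alone.

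Hhip, a membrane protein that binds and sequesters Hedgehog ligands (chromosome 8, 79965851 to 80058006, minus strand), had a promoter peak with a fold of 9.72 (6.19 to 14.6) in replicate 1 and 10.2 (6.98 to 14.4) in replicate 2, and no control peak. These folds were near each other, but the summits lay 1218 and 2106 bp inside the gene and 888 bp apart. Replicate 2 had a second, weak promoter peak with a fold of 4.27, 776 bp upstream of the start. The lower fold was at percentile 57.4.

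Boc, the co-receptor (chromosome 16, 44485049 to 44558897, minus strand), had a single peak in each Foxr2 p53LOF replicate and none in the controls. The fold was 7.51 (4.48 to 11.9) in replicate 1 and 7.23 (4.599 to 10.9) in replicate 2. The peaks were narrow, at 801 and 792 bp, began at the same base, and had summits in an exon 232 and 274 bp inside the start. Of the 8 members with peaks, Boc was the one with no distal peak and no second promoter peak in either replicate.

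Smo, the transducer (chromosome 6, 29735503 to 29761365, plus strand), showed 3 sites of different kinds shared by both Foxr2 p53LOF replicates. At its own start the fold was 8.40 (5.16 to 13.0) in replicate 1 and 8.54 (5.64 to 12.5) in replicate 2, with no peak in either control. The window of replicate 1, shown above, held the letters of the ETS core at 2 places, and its summit lay 783 bp inside the start, 749 bp from that of replicate 2. The promoter window of replicate 2 held none of the 5 motifs. The second site, in an intron about 12 kb inside the gene, was a peak in all 4 libraries. Its fold was 7.95 (4.82 to 12.5) and 7.23 (4.599 to 10.9) in Foxr2 p53LOF and 27.1 (21.3 to 34.03) and 15.2 (9.97 to 22.4) in the V5 control. The interval of control replicate 1 lay above those of both Foxr2 p53LOF replicates, while that of control replicate 2 overlapped them, and each fold relates to the background of its own library. The control 1 window there was 98.0% soft-masked as repeat in the reference, and windows at least 90% soft-masked made up 17.9% and 23.8% of those in the controls but 1.16% and 1.21% of those in Foxr2 p53LOF. Of the peaks of control 1, 84 overlapped peaks of the other 3 libraries. The study's filters remove Foxr2 peaks that overlap a control peak, and Smo kept its promoter site without it.

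The third site, downstream of Smo, lay at the start of the neighbouring gene Ahcyl2. Its fold was 18.6 (13.4 to 25.01) in replicate 1 and 20.4 (15.7 to 26.1) in replicate 2, with summits 51 bp apart and no control peak. The intervals of the Ahcyl2 site and of the Smo promoter did not overlap in either replicate. The highest peak of the Smo region was therefore not at a start of Smo. Foxr2 p53LOF replicate 2 also had a distal peak downstream of Smo with a fold of 3.29, which overlapped no peak of another library.

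Gli1, a GLI transcriptional activator and the usual readout of pathway activity (chromosome 10, 127329882 to 127341974, minus strand), had 2 promoter peaks in each Foxr2 p53LOF replicate and none in the controls. The upstream peak had folds of 9.28 (5.84 to 14.1) and 6.24 (3.83 to 9.67), with summits 310 and 395 bp upstream of the start. At the inner of the 2 annotated starts the folds were 8.40 (5.16 to 13.0) and 6.90 (4.34 to 10.5), and the summits, 759 and 760 bp inside, were 1 bp apart. Both peaks were higher in replicate 1, within overlapping intervals, and Gli1 had no distal peak. The inner window, printed above, held none of the 5 motifs.

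Gli2, the main activator downstream of Smo (chromosome 1, 118834132 to 119053619, minus strand), had promoter folds of 8.84 (5.50 to 13.6) and 9.20 (6.17 to 13.2) and no control peak. The summits lay 644 and 247 bp upstream of the start. The window of replicate 2 held the GLI core at 119053818 to 119053824, which was the only match to it in the 11 promoter windows of that replicate, while 3.43% of all its promoter windows held one. The Gli2 promoter window of replicate 1 held none of the 5 motifs. Gli2 also had 6 distal peaks in replicate 1 and 4 in replicate 2, with folds from 3.29 to 5.74. Of these only the pair with folds of 4.42 and 3.94 overlapped, and none was above the minimum.

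Gli3, best known as a repressor (chromosome 13, 15463235 to 15730026, plus strand), had a promoter fold of 8.84 (5.50 to 13.6) in replicate 1 and 5.59 (3.33 to 8.86) in replicate 2, and no control peak. The intervals overlapped, and the summits, 243 and 266 bp upstream of the nearest start, were 23 bp apart. The gene kept its place above the minimum through an intronic peak with folds of 6.19 (3.50 to 10.3) and 7.23 (4.599 to 10.9), whose summits were 4514 and 4453 bp from the start. Another shared site, near 80 kb, had folds of 5.74 and 5.91. With 5.59, 5.74 and 5.91 just outside and 6.19 just inside, Gli3 was the gene for which the threshold mattered most. The chromosome scalings moved Gli3 in opposite directions. Divided by the level of all peaks on chromosome 13, its highest folds were 9.64 and 8.34. Its promoter peak was then shared above the minimum, which made that count 8 of 9, beside 37.8% of all genes so scaled. Divided by the level of the chromosome's promoter peaks, a choice made after seeing the data, the highest folds of Gli3 were 6.63 and 5.42. The gene then had no shared peak above the minimum.

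Sufu, the cytoplasmic inhibitor of the GLI proteins (chromosome 19, 46396896 to 46488804, plus strand), had the second highest promoter fold of the set, 14.1 (9.75 to 19.9) in replicate 1 and 21.7 (16.8 to 27.6) in replicate 2, with no control peak. The summits lay 1434 and 1375 bp upstream of the nearest Sufu start and 59 bp apart. The nearest start to both summits was that of Actr1a, a gene of the opposite strand that encodes a dynactin subunit, at 276 and 217 bp. The peaks reached the starts of both genes and could not be given to either alone. With peaks placed by their summits, Sufu had no promoter peak. Without peaks at starts of other genes, Sufu had no shared peak above the minimum and the count over the set was 7 of 9. Of all genes, 34.4% had one under that rule. The printed window held the SOX motif ACAAAG once on each strand. The distal peaks of Sufu had folds from 2.96 to 5.30.

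**Figure D3:**
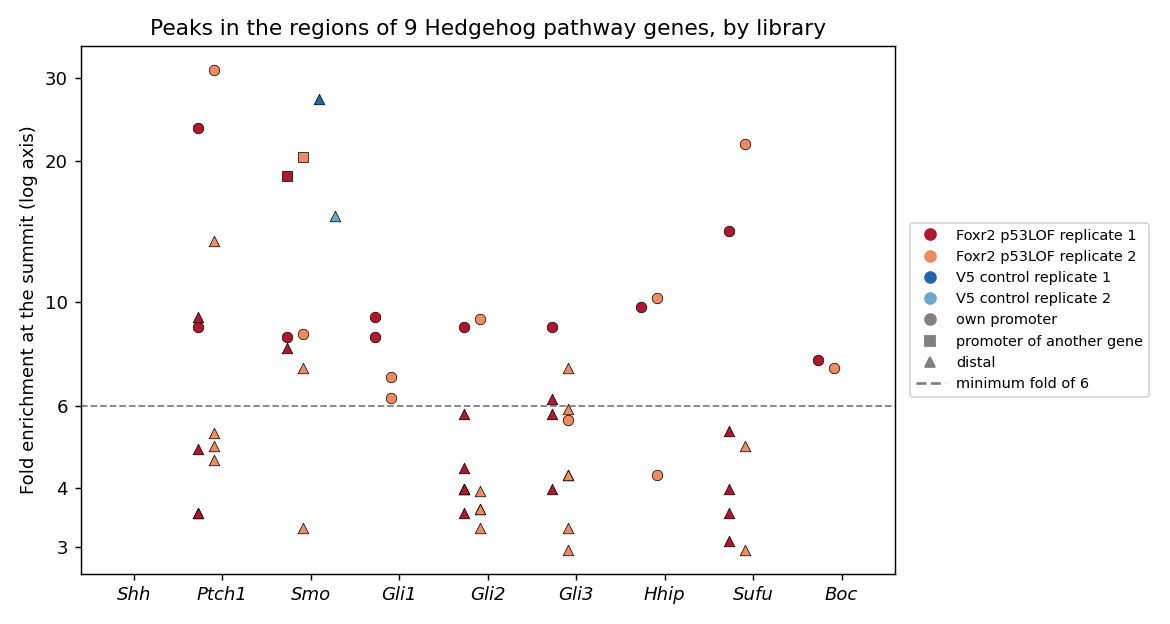
Fold enrichment at the summit (vertical log axis) of every peak in the regions of the 9 genes, by library (color) and class (circle, own promoter; square, promoter of another gene; triangle, distal); the dashed line is the minimum fold of 6. Promoter peaks of Ptch1 and Sufu are the highest own-promoter peaks, distal peaks mostly fall under the line, and the 2 control peaks are the blue triangles in Smo.

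Ordered by the lower of their 2 promoter folds, the genes ran Ptch1 (23.4), Sufu (14.1), Hhip (9.72), Gli2 (8.84), Smo (8.40), Boc (7.23), Gli1 (6.90) and Gli3 (5.59). Neighbours in this order had overlapping intervals in both replicates, except that Sufu and Hhip did not overlap in replicate 2. The intervals of Ptch1 lay above those of all 6 genes from Hhip down in both replicates. Over the 8 genes the median of the lower promoter fold was 8.62, and over all 11174 genes with a shared promoter peak it was 8.84, with quartiles of 6.19 and 12.4. Apart from Ptch1 and Sufu, at percentiles 95.7 and 81.2, the promoters stood between percentiles 16.7 and 57.4. These folds belong to peaks that reach within 1 kb of a start. For Ptch1 in replicate 2, and for Sufu and Hhip in both replicates, the summit itself lay farther away. With peaks placed by their summits, only Smo, Gli1, Gli2 and Boc kept a shared promoter peak above the minimum. Of all genes, 36.7% had one under that rule, beside 39.6% with peaks that reach a start. By peaks that reach a start, the promoters were thus of ordinary height for this line, with Ptch1 at the upper end.

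**Figure D4:**
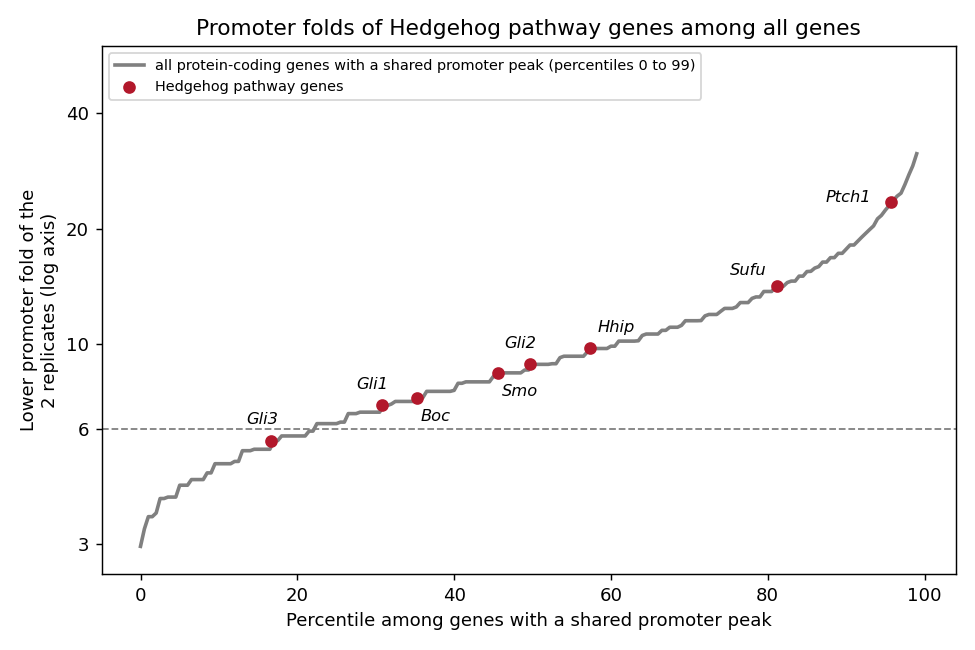
Lower of the 2 replicates' promoter folds (vertical log axis) against the percentile among the 11174 genes with a shared promoter peak (horizontal axis, drawn to percentile 99); grey line, all genes; red points, pathway genes. Of the 8 pathway genes with such a peak, 6 sit between percentiles 16.7 and 57.4, Sufu is at 81.2 and Ptch1 at 95.7.

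Promoter and distal peaks differed in height and in how often they recurred. The 9 regions held 29 peaks in each Foxr2 p53LOF replicate, of which 10 were at a member's own promoter, 1 at Ahcyl2 and 18 distal. Own-promoter peaks had a median fold of 8.84 in replicate 1 and 7.89 in replicate 2, and distal peaks 3.98 and 4.27. Above the minimum there were 10 and 8 own-promoter peaks but 3 and 3 distal ones, in Ptch1, Smo and Gli3. Counting Ahcyl2 with them, 11 of 11 promoter peaks of replicate 1 and 9 of 11 of replicate 2 (81.8%) were above the minimum, against 72.1% and 73.1% of the promoter peaks at all genes. In each replicate 16.7% of the distal peaks were above the minimum, against 24.1% and 21.7% of the distal peaks at all genes. Of the 11 promoter peaks, 11 in replicate 1 and 10 in replicate 2 overlapped a peak of the other replicate, beside 93.7% and 89.5% over all genes. Of the 18 distal peaks, 9 overlapped a peak of the other replicate in each direction, which is 50.0% beside 65.1% and 43.8% over all genes. Of the 22 overlapping pairs of peaks in the 9 regions, 13 were above the minimum in both replicates, beside 12164 of all 24807 pairs. The median distance between their summits was 398 bp, beside 188 bp over all pairs. These distal counts and pairs include the Smo intron site that was a peak in the controls too.

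Motif matches were counted in the 29 windows of each Foxr2 p53LOF replicate and set beside the share of all windows. The ETS core was in 2 of 29 windows of replicate 1, at the Smo promoter and at Ahcyl2, and in 1 of 29 of replicate 2, where 5.49% and 5.02% of all windows held it. Among promoter windows these shares were 10.4% and 10.5%, and 14.9% of the promoters in the RefSeq table (300 bases each) held the same letters. The GLI core was in 1 of 29 windows of each replicate, where 2.94% and 2.76% of all windows and 4.61% of the RefSeq promoters held it. The forkhead motif was in none, where 2.52% and 2.69% of all windows and 3.65% of the promoters did. The SOX motifs were in 7 windows of each replicate, where 23.6% and 24.7% of all windows and 28.6% of the promoters held one. The CCAAT box was in 6 and 7 windows, where 20.6% and 21.5% of all windows and 37.4% of the promoters held one. Such a match shows that the letters are present and not that a factor binds there.

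A wider list of 31 further pathway genes was read in the same way. A shared peak was present at 28 of them (90.3%), above the minimum at 21 (67.7%), and a shared promoter peak at 23 (74.2%), above the minimum at 16 (51.6%), beside the 62.6%, 50.4%, 50.9% and 39.6% of all genes. None had a control peak. These genes and their role groups were not read in bins of promoter GC content or region length, as the 9 genes were. Across the 5 bins of promoter GC content, 5.89% to 66.2% of all genes had a shared promoter peak above the minimum. The kinases and ubiquitin ligase parts that act on GLI proteins had promoter peaks above the minimum at 6 of 6 genes, with a median lower promoter fold of 10.3. Among them were Gsk3b, a kinase that phosphorylates GLI proteins for their processing, with highest folds of 27.8 and 48.6, and Spop, a substrate adaptor of a ubiquitin ligase, with 22.5 and 26.3. Of 6 genes known as pathway targets, 5 had such a promoter peak, with a median of 8.75.

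By promoter peaks, genes for making and releasing ligand had the lowest share of the roles, with a shared one at 1 of 5 and none above the minimum. Of all genes, 50.9% and 39.6% had such promoter peaks. The shared one had folds of 4.42 and 6.90 in replicates 1 and 2. Other genes of this role had a promoter peak in 1 replicate alone, with folds of 3.98 (replicate 1) and 4.27 (replicate 2). Over the whole region, 4 of these 5 genes had a shared peak and 3 had one above the minimum, beside 62.6% and 50.4% of all genes. Receptors and binding proteins had a shared promoter peak at 3 of 4 and above the minimum at 1. Of the 10 genes of the cilium and the relay from Smo to the GLI proteins, 9 had a shared peak. A shared peak above the minimum was at 4 of these genes, and a shared promoter peak above it at 4. Iqce, which tethers the EVC proteins at the base of the cilium, had the highest region peak of the wider list, with folds of 31.8 and 50.9, though at its own promoter the fold was 7.51 in replicate 1 and 50.9 in replicate 2, where 1 peak made up both values. The 3 genes without a peak in any library were Ihh, a second Hedgehog ligand, Lrp2, an endocytic receptor that binds Shh, and Gpr161, an orphan receptor that restrains the pathway in the cilium. The ligands Shh and Ihh thus both lacked a peak, and the remaining ligand, Dhh, had peaks in its region, with highest folds of 16.4 and 24.6, but no shared promoter peak. Dhh is named after its values were seen.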

How the data were processed

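CUT&RUN with a V5-Tag antibody was carried out on 2 Foxr2 p53LOF and 2 V5 control libraries. The authors trimmed reads with Trimmomatic 0.39, aligned them to mm10 with BWA 0.7.17, removed duplicates with Picard 2.26.6 and called peaks in each library alone with MACS2 2.2.7.1. The deposited peak lists give for each peak a fold enrichment at the summit over the library background, a −log10 p-value and a −log10 q-value, a score that is the q-value on another scale, and the position of the summit. They were deposited before the filters of the study's methods, and peaks above 6-fold were therefore counted separately here. No read totals are given. The fold was taken to be the fragments at the summit plus 1, over a single background per library plus 1. A local background would change the fragment counts and intervals. The background that made these counts whole was 1.26, 2.04, 1.69 and 0.642 fragments in the libraries in turn (Foxr2 p53LOF replicates 1 and 2, then the controls). At a tolerance of 0.02, 99.97%, 99.97%, 97.4% and 95.97% of values came out whole.

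Peaks were assigned to genes with Python 3.11.15 and pandas 2.3.3, and sequences were read from the GRCm38 reference with pysam 0.24.0. The sequence of 1 window is not reported here. Peaks of replicates were called shared when they overlapped by 1 bp. Counts of genes are descriptions beside the share of all genes, and the number of genes with a peak was compared between groups by an exact permutation test. All 9 members are named, with genes whose starts lay within 1 kb of a member's peak and, of the wider list, the 3 with the highest lower fold and 3 without a peak. Dhh and Rbm33 were named after their values were seen. The members and lists were chosen with earlier results of these data known. Alternatives covered the minimum fold, the overlap, the flank, the promoter width, the level of each chromosome and the libraries left out. They also covered the study's filters apart from its open-chromatin step. On simulated peaks the assignment recovered 400 of 400 planted genes without a minimum and 200 of 200 with it. The planted genes lay far from other protein-coding genes, so crowded sites such as Smo and Ahcyl2 or Sufu and Actr1a were not simulated.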

Additional observations from a re-analysis of the deposited data

How the results depend on the processing

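The count of genes with a shared peak above the minimum, 8, became 5 at a minimum fold of 8, 3 at 10 and 5 when summits had to lie within 200 bp. The share of all genes with one went from 50.4% to 37.9%, 28.2% and 38.0% in turn. The count with a shared promoter peak above the minimum, 7, became 2 at a minimum fold of 10, 3 with summits within 200 bp and 4 when a peak was placed by its summit. For such promoter peaks the share of all genes went from 39.6% to 20.1%, 26.4% and 36.7% in turn. The median over genes of the highest fold, 9.5 in replicate 1 and 9.69 in replicate 2, was 9.64 and 9.42 once each fold was divided by the level of its own chromosome, and 9.82 and 8.92 with the level of its promoter peaks, a choice made after seeing the data. Leaving out 1 Foxr2 p53LOF replicate gave counts of 8 to 8 without a minimum and with it, and 7 to 8 for promoters. The shares of all genes were then 66.15% to 66.94%, 53.35% to 55.39% and 41.97% to 43.92%. The permutation p was 0.333 without any 1 library, where a group of 1 library is a comparison of 3 libraries. Labels number replicates alike in both groups, but nothing ties equal numbers together, and with the replicate block the exact permutation p was 0.5, the smallest that pairing allows. Of the other alternatives none moved a count by over 1.5 times. Depth limits weak peaks most: the lowest listed folds rest on 6 and 8 fragments in the Foxr2 p53LOF replicates.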
